A study of Homo sapiens with 6 samples.

Results

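Adhesion of myeloma cells to their surroundings runs largely through integrins and the immunoglobulin-superfamily receptors they bind. The 9 genes described here are 5 integrin subunits (ITGA4, ITGB1, ITGB7, ITGAL and ITGB2) and 4 ligands (ICAM1, ICAM2, ICAM3 and VCAM1). They were chosen by symbol, each matched to 1 gene identifier on a primary chromosome, and they are 9 of the 63677 genes in the count table, of which 57773 lie on primary chromosomes. An integrin is a pair of an α and a β subunit in the plasma membrane. ITGA4 pairs with ITGB1 or ITGB7 and the resulting receptors bind VCAM1, fibronectin and the mucosal addressin MADCAM1, whereas ITGAL pairs with ITGB2 to form the leukocyte integrin LFA-1, which binds the ICAM proteins. In multiple myeloma these contacts hold plasma cells in the bone marrow, and ICAM1 and VCAM1 are textbook genes of inflammatory signalling in endothelium and leukocytes.

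RNA-seq was performed on RPMI8226, a human multiple myeloma cell line labelled wild type, after 6 h with 100 nM of a recombinant protein. Control cells received GST alone, and treated cells received GST-PTR1, in which the first proteoglycan tandem repeat domain of the matrix link protein HAPLN1 is fused to GST. Both proteins were purified from Escherichia coli, so the GST tag and bacterial production were common to all libraries. A shared host does not make the endotoxin load of separate preparations equal, and a part of endotoxin in the results was not tested. The paper reports that bacterial LPS, measured by a Limulus assay, lay orders of magnitude under what its NF-κB binding assay detects in these cells. Each treatment had 3 libraries described as biological replicates of this 1 cell line, with no untreated cells. They are called A, B and C within a treatment, in order of total counts, and the letters were not assigned to pair GST with GST-PTR1 libraries.

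Total counts ran from 15202503 to 23453473 in the GST libraries and from 22874133 to 44688737 in the GST-PTR1 libraries, so the GST-PTR1 libraries were on the whole deeper. All 11 plasma cell markers examined were detected, with summed levels of 23890 to 28220 RPKM (counts scaled to the exon length of the gene and to the total of the library) with GST and 24860 to 29640 RPKM with GST-PTR1, nearly all from IGLC2, IGLC3 and JCHAIN. Single markers differed without overlap in both directions, with SDC1 at means of 111.9 and 47.9 RPKM, TNFRSF17 at 27.4 and 8.87 and XBP1 at 142.2 and 89.4 with GST and GST-PTR1, and PRDM1 at 9.98 and 22.2, IRF4 at 49.8 and 68.6 and SLAMF7 at 1.296 and 3.24. Marker lists of other cells, again with GST and then GST-PTR1, summed to 60.5 to 69.6 and 43.9 to 56.1 RPKM for 6 B cell genes (nearly all CR2), 1.67 to 1.73 and 0.775 to 0.983 for 6 T cell genes (mostly CD8A), 3.70 to 6.72 and 9.09 to 17.9 for 8 myeloid genes (mostly S100A9), and 57.6 to 63.1 and 39.4 to 43.0 for 5 epithelial genes (nearly all EPCAM and KRT18), none of them overlapping. The stromal and endothelial lists reached at most 0.0581 and 0.0241 RPKM, and CD22, CD3D, CD3E, CD3G, CD2, LYZ, FCGR3A, CDH5 and KRT19 had at most 3 counts in any library. The part of these differences in the results below was not tested. In bulk RNA, fewer cells carrying a transcript and less of it per cell cannot be told apart.

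Promoter sequence was available from RefSeq (GRCh38.p14) for 6 of the 9 genes, in 9 windows. The 250 bases before the annotated start are shown for ICAM1 and VCAM1, whose libraries did not overlap between treatments and were higher with GST-PTR1, and for ICAM3, a neighbour of ICAM1 in the genome that did not pass the test. They lie at chr19:10270870-10271119 on the plus strand, chr1:100719492-100719741 on the plus strand and chr19:10339625-10339874 on the minus strand (the first of 3 windows of ICAM3). Capitals mark every match, on either strand, to 5 motifs: the 10-letter κB consensus, GGAANNNCC, TGANTCA, TTCNNNGAA and TATAAA.
ICAM1: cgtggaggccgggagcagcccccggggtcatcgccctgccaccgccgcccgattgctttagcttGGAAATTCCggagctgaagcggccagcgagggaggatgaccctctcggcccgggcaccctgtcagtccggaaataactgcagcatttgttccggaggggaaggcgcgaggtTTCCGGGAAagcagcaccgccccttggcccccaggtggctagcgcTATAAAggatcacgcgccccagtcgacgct
VCAM1: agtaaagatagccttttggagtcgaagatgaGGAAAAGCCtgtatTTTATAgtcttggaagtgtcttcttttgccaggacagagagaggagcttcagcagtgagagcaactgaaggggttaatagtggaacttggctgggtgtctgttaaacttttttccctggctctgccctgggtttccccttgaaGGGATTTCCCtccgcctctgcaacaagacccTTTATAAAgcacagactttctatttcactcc
ICAM3: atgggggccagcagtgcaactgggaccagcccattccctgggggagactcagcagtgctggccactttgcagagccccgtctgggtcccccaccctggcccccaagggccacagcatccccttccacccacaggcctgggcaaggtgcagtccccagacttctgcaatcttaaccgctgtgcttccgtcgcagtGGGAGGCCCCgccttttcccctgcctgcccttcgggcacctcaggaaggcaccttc
In ICAM1 the capitals are GGAAATTCC, a match to GGAANNNCC 186 to 178 bases before the start that reads the same on both strands, TTCCGGGAA, a match to TTCNNNGAA 75 to 67 bases before it, and TATAAA 30 to 25 bases before it. Read with the T in front of it, the ICAM1 stretch GGAAATTCC differs from the κB consensus at the first letter only. In VCAM1 the κB consensus was matched by GGGATTTCCC 62 to 53 bases before the start, and the same bases also hold a GGAANNNCC match on the opposite strand. VCAM1 had a further GGAANNNCC match 219 to 211 bases before the start and 3 matches to TATAAA, of which 2 overlap near the start. The ICAM3 window held only GGGAGGCCCC, a κB consensus match 56 to 47 bases before the start. The same bases were matched directly before the first start of ITGB1, whose other window held 3 matches to TATAAA, and the windows of ITGA4 and ITGB7 and the other ICAM3 windows had none of the 5 motifs. Among all 35116 promoter windows of this length, 9.96% held the κB consensus, 17.1% GGAANNNCC, 6.57% TGANTCA, 6.57% TTCNNNGAA and 10.7% TATAAA. These matches describe letters in a window and were not tested against expression.

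ICAM1 was the member that rose with GST-PTR1, and it rose strongly. ICAM1, the inducible receptor for LFA-1 (ENSG00000090339, GRCh37 chr19:10381511-10397291, plus strand), stood at 109.2, 94.8 and 109.0 RPKM in GST libraries A, B and C and at 473.7, 481.1 and 420.5 RPKM in GST-PTR1 libraries A, B and C. All 3 GST-PTR1 libraries lay far above all 3 GST libraries, and the spread within each treatment was narrow, the highest library being 1.15 and 1.14 times the lowest. The change was 5.03-fold (95% interval 4.21 to 6.02), or a log2 fold change of 2.33 ± 0.12 (SE), with an adjusted p of 2.1e-07 by edgeR's quasi-likelihood test over 16926 genes with Benjamini-Hochberg adjustment. Unless stated otherwise, fold changes come from this test, with libraries scaled by TMM (trimmed mean of M values), while RPKM is on library totals. On library totals the ratio of the ICAM1 means was 4.395. Across the whole table, 9.15% of the genes tested passed this test as higher and 11.4% as lower with GST-PTR1, and the ICAM1 log2 fold change was at the 98.7th percentile of all genes tested. ICAM1 passed under each of the 15 alternative fits, with log2 fold changes of 2.14 to 2.37.

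The other ICAM genes among the members did not pass the test. ICAM2 (ENSG00000108622, chr17:62079954-62097994, minus strand), a ligand of LFA-1 present on resting leukocytes and endothelium, had 16.7, 16.3 and 17.8 RPKM with GST and 13.3, 11.5 and 16.1 RPKM with GST-PTR1. Its log2 fold change was -0.11 ± 0.14 (SE, edgeR adjusted p = 0.629, 95% interval -0.43 to 0.21). ICAM2 libraries did not overlap per library total, but they did once the totals were scaled by TMM, where they ran from 15.2 to 16.8 RPKM with GST and from 12.1 to 18.3 RPKM with GST-PTR1. ICAM3 (ENSG00000076662, chr19:10444452-10450499, minus strand), the LFA-1 ligand of resting leukocytes, had 77.6, 64.2 and 71.8 RPKM with GST and 69.4, 64.1 and 62.0 RPKM with GST-PTR1. These ICAM3 values overlapped, and the log2 fold change was 0.07 ± 0.10 (SE, edgeR adjusted p = 0.662, 95% interval -0.15 to 0.29), which turned to -0.13 when libraries were scaled by their totals. The upper end of the ICAM3 interval is a 1.22-fold change, far under the lower end for ICAM1.

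The make-up of the ICAM transcripts differed between the treatments. ICAM1 accounted for 54.2 ± 0.616% (SD, n = 3) of the summed RPKM of ICAM1, ICAM2 and ICAM3 with GST and for 85.3 ± 1.06% with GST-PTR1. Within a library, where scaling between libraries plays no part, ICAM1 stood at 1.41, 1.48 and 1.52 times ICAM3 with GST and at 6.83, 7.51 and 6.79 times with GST-PTR1. The ratio of ICAM1 to ICAM2 was 6.55, 5.81 and 6.11 with GST and 35.6, 41.9 and 26.1 with GST-PTR1. Both ratios separated the treatments completely, by 4.80-fold and 5.51-fold. An exact two-sided permutation test over 3 against 3 libraries cannot go below p = 0.1, which both reached (adjusted p = 0.233 over 7 ratios). The ratio of ICAM3 to ICAM2 overlapped, at 4.66, 3.94 and 4.03 with GST and 5.22, 5.58 and 3.85 with GST-PTR1 (exact permutation p = 0.4).

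VCAM1, the endothelial and stromal ligand of the ITGA4 integrins (ENSG00000162692, chr1:101185298-101204601, plus strand), was barely detected. It had 0, 2 and 4 counts in GST libraries A, B and C and 6, 13 and 18 counts in GST-PTR1 libraries A, B and C, and these treatments did not overlap. Summed over libraries this was 6 counts of 58733256 against 37 of 96400301, a ratio per total of 3.76 (95% exact interval 1.57 to 10.9, covering counting error only). VCAM1 fell under the filter on low counts and so was not among the 16926 genes tested. It passed in an edgeR fit of genes with at least 1 count in any library (log2 fold change 2.09 ± 0.63, SE, adjusted p = 0.00884) and missed the threshold with DESeq2 (2.16 ± 0.93, adjusted p = 0.0891). At a mean of 0.0615 RPKM with GST-PTR1, VCAM1 remained the lowest of the members in both treatments.

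**Figure D1:**
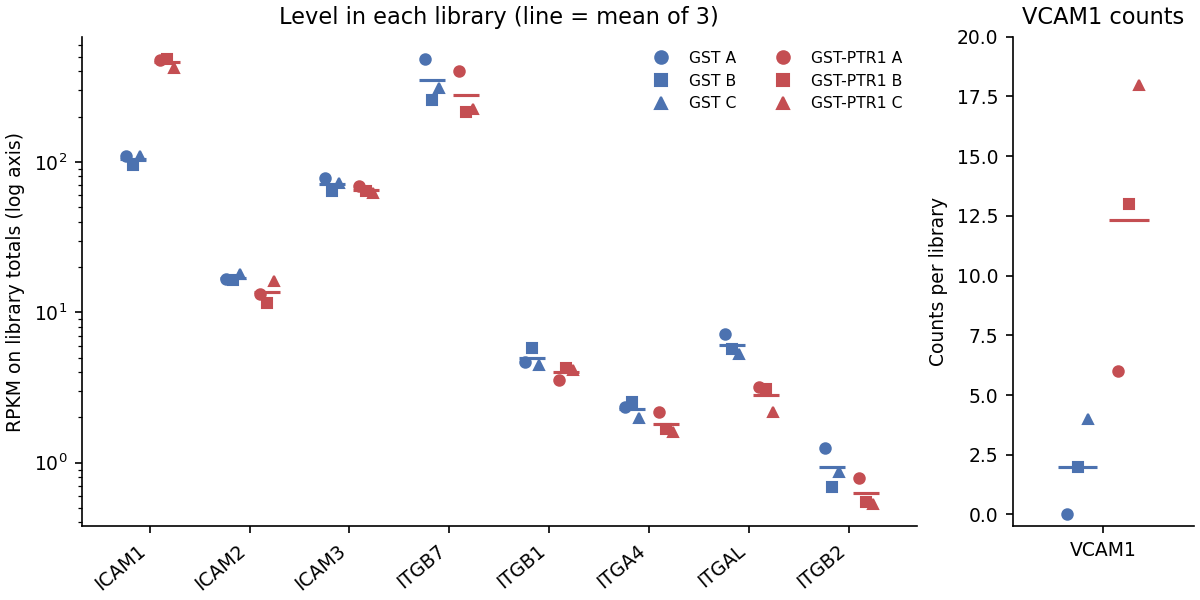
Level of each member in the 3 GST (blue) and 3 GST-PTR1 (red) libraries, as RPKM on a log axis for 8 genes and as counts for VCAM1. Circles, squares and triangles are libraries A, B and C, and lines are means of 3. ICAM1 moves from 94.8 to 109.2 RPKM up to 420.5 to 481.1 RPKM, ITGAL is lower in all 3 GST-PTR1 libraries, and ITGB7 is highest in library A of each treatment.

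Among the integrin subunits, ITGAL fell. ITGAL encodes the αL chain of LFA-1, the receptor for the ICAM proteins (ENSG00000005844, chr16:30483979-30534506, plus strand). It had 7.12, 5.67 and 5.32 RPKM with GST and 3.16, 3.09 and 2.19 RPKM with GST-PTR1, so that every GST-PTR1 library was below every GST library. The log2 fold change was -0.91 ± 0.15 (SE, 95% interval -1.24 to -0.59, edgeR adjusted p = 0.00143), leaving ITGAL at 0.532 of its control level (0.425 to 0.665) with TMM scaling. On library totals the ratio of the mean RPKM was 0.466. ITGAL passed in 14 of 15 alternative fits, with log2 fold changes of -1.10 to -0.77, and not when tested against a change of 2-fold.

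Its partner ITGB2, the β chain of the leukocyte integrins (ENSG00000160255, chr21:46305868-46351904, minus strand), had 1.26, 0.689 and 0.866 RPKM with GST and 0.791, 0.551 and 0.530 RPKM with GST-PTR1. The ITGB2 treatments overlapped and the change missed the threshold, at a log2 fold change of -0.39 ± 0.23 (SE, edgeR adjusted p = 0.242), with a 95% interval of -0.89 to 0.11 that still covers values close to that of ITGAL. ITGAL stood at 5.66, 8.23 and 6.14 times ITGB2 within the GST libraries and at 3.996, 5.61 and 4.12 times within the GST-PTR1 libraries. These ratios did not overlap, though GST-PTR1 B lay just under GST A, and the ratio was 0.686 of its control value (exact permutation p = 0.1, the smallest possible, adjusted p = 0.233). In this pair the α transcript was the more abundant per length in all 6 libraries.

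The subunits of the VCAM1 receptors did not pass the test. ITGA4, the α4 chain shared by both receptors (ENSG00000115232, chr2:182321929-182400914, plus strand), had 2.34, 2.52 and 1.97 RPKM with GST and 2.16, 1.69 and 1.60 RPKM with GST-PTR1. These values overlapped (log2 fold change -0.14 ± 0.14, SE, edgeR adjusted p = 0.515, 95% interval -0.45 to 0.17). ITGB1, the most widely used β chain (ENSG00000150093, chr10:33189247-33294720, minus strand), had 4.67, 5.75 and 4.46 RPKM with GST and 3.55, 4.28 and 4.13 RPKM with GST-PTR1. Its libraries separated per library total and overlapped after TMM scaling (4.20 to 5.47 against 3.64 to 4.68 RPKM), with a log2 fold change of -0.12 ± 0.14 (SE, edgeR adjusted p = 0.599, 95% interval -0.43 to 0.20).

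ITGB7, the partner of ITGA4 in lymphocytes that home to the gut (ENSG00000139626, chr12:53585102-53601091, minus strand), was the most abundant integrin transcript by a wide margin. It had 483, 258 and 309 RPKM with GST and 402, 214 and 224 RPKM with GST-PTR1. The smallest library of each treatment carried the highest ITGB7 level, and the highest library was 1.87 times the lowest with GST and 1.88 times with GST-PTR1. For ITGB2, also highest in library A of each treatment, these values were 1.83 and 1.49, and for ITGAL, ITGB1 and ITGA4 they were at most 1.34 with GST and 1.45 with GST-PTR1. ITGB7 overlapped between treatments, with a log2 fold change of -0.13 ± 0.25 (SE, edgeR adjusted p = 0.742) and a 95% interval from -0.68 to 0.42. Without GST library A the ITGB7 log2 fold change was 0.15, and without GST-PTR1 library B it was 0.04. Each of these fits leaves out a library from 1 treatment only, while library A was the highest in both. In fits of the 4 libraries whose column numbers occur in both treatments, which leave out library A from both, ITGB7 was at -0.16 without and with a block. With an interval that covers 0, its direction was not settled by these libraries.

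The balance among the ITGA4 receptor subunits overlapped between the treatments. ITGB7 made up 98.2 ± 0.614% (SD, n = 3) of the summed RPKM of ITGB1, ITGB2 and ITGB7 with either protein. ITGB7 stood at 103.5, 44.9 and 69.2 times ITGB1 with GST and at 113.4, 50.1 and 54.2 times with GST-PTR1. The ratio of ITGA4 to ITGB1 was 0.501, 0.439 and 0.442 with GST and 0.609, 0.394 and 0.388 with GST-PTR1. The fold of the ratio between treatments was 0.986 for each of these and 1.00 for ITGA4 over ITGB7 (exact permutation p = 1 for each), while the SD of the log2 ratios within a treatment ran from 0.11 to 0.65, so that small shifts were not detectable.

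**Figure D2:**
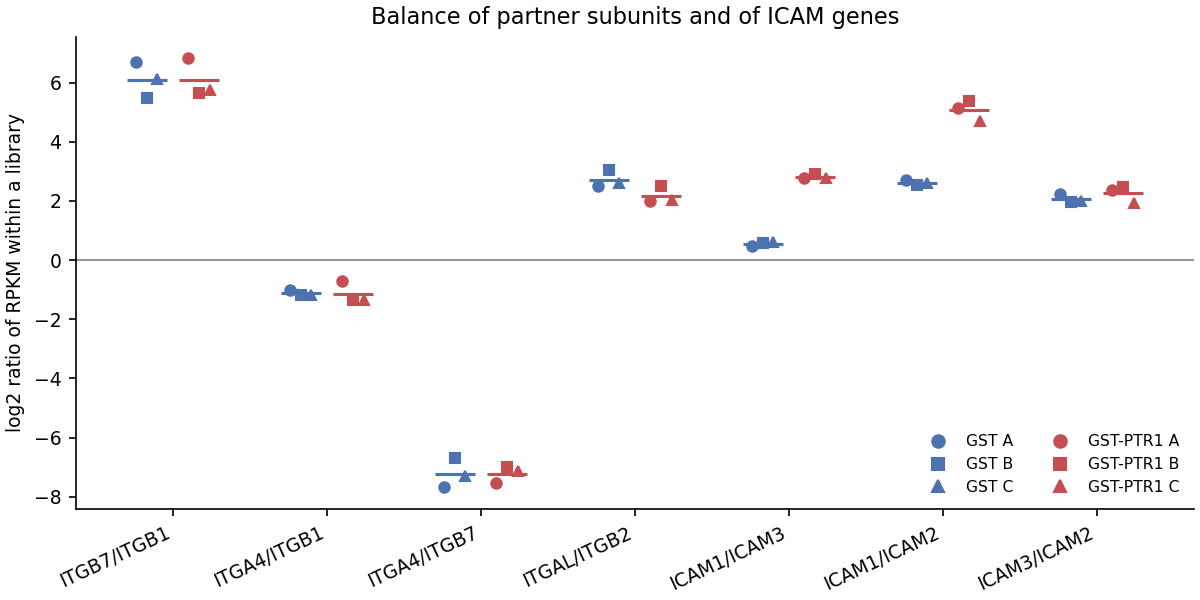
Log2 of the ratio of RPKM values of 2 members within each library, for 7 ratios, in GST (blue) and GST-PTR1 (red) libraries, with lines at the mean of 3. ICAM1/ICAM3, ICAM1/ICAM2 and ITGAL/ITGB2 do not overlap between treatments, and the other 4 ratios do.

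Of the 9 members, 8 were tested, of which 1 passed as higher (ICAM1), 1 as lower (ITGAL) and 6 did not pass. Over all genes tested, 9.15% passed as higher and 11.4% as lower. The median log2 fold change of the members tested was -0.12, beside 0.01 for all genes tested. Per library total, 5 of the 9 did not overlap between treatments, with ICAM1 and VCAM1 higher and ICAM2, ITGB1 and ITGAL lower. Among all genes tested, 8.71% did not overlap with GST-PTR1 higher and 34.4% with GST-PTR1 lower, an imbalance that goes with a shift of -0.20 in the median log2 fold change when libraries are scaled by totals. On TMM-scaled totals ICAM1, VCAM1 and ITGAL remained without overlap, as did 40.4% of all genes tested in either direction.

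**Figure D3:**
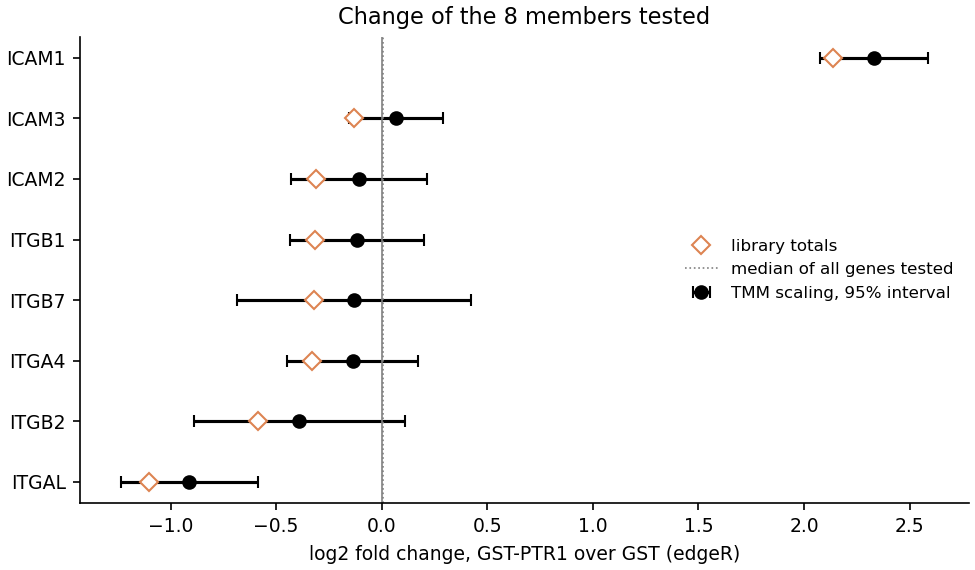
Log2 fold change of the 8 members tested, GST-PTR1 over GST, with 95% intervals from edgeR with TMM scaling (black) and the estimate on library totals (open diamonds). ICAM1 at 2.33 and ITGAL at -0.91 are the 2 whose intervals leave out 0 and which pass the test. With library totals each value is lower, and ICAM3 changes sign.

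The order of the levels changed at the top. With GST the order per length was ITGB7 (mean 350.0 RPKM), ICAM1 (104.3), ICAM3 (71.2), ICAM2 (16.9), ITGAL (6.03), ITGB1 (4.96), ITGA4 (2.28), ITGB2 (0.938) and VCAM1 (0.0149), and ITGAL and ITGB1 were the neighbours whose libraries overlapped. With GST-PTR1 ICAM1 came first (458.4), above ITGB7 (280.1) in all libraries, and ITGB1 (3.98) stood above ITGAL (2.81). No neighbours overlapped with GST-PTR1. The place of ICAM1 above ITGB7 rested on values of 420.5 RPKM and over against 402 and under, a narrow gap set by the ITGB7 level of library A.

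The wider integrin family was also led by few subunits. Of the 26 integrin subunit genes, 13 were tested and 13 were too low. The 18 α genes summed to 18.4, 16.4 and 15.2 RPKM with GST and 11.3, 10.9 and 9.44 RPKM with GST-PTR1, and these sums did not overlap. These sums are on library totals, where 34.4% of all genes tested were lower with GST-PTR1 without overlap. No sum was made with TMM scaling. The 8 β genes summed to 504, 275 and 326 RPKM with GST and 416, 228 and 236 RPKM with GST-PTR1, that is 16.8 to 27.3 and 20.8 to 36.7 times the α sum. Without ITGB7 the β sum was 1.05 to 1.12 times the α sum with GST and 1.20 to 1.28 times with GST-PTR1. ITGAL supplied 36.0 ± 2.26% (SD, n = 3) of the α sum with GST and 26.4 ± 2.85% with GST-PTR1, and ITGA4 13.7 ± 1.46% and 17.1 ± 1.82%.

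Of the 21 integrin subunits beside the members, 8 were tested, 1 rose (12.5%) and 3 fell (37.5%), with a median log2 fold change of -0.39. For this and the gene counts below, the values over all genes tested were 9.15% higher, 11.4% lower and a median of 0.01. The gene that rose was ITGB8, the partner of ITGAV in a receptor for latent TGF-β, which had 4, 11 and 9 counts with GST and 156, 297 and 350 counts with GST-PTR1. ITGB8 went from 0.0263 ± 0.00943 to 0.549 ± 0.118 RPKM (SD, n = 3), a log2 fold change of 4.53 ± 0.29 (SE, edgeR adjusted p = 1.23e-06), and the ratio of the summed counts per total was 20.4 (95% exact interval 13.6 to 32.0). It ended close to the level of ITGB2, and under a filter of 10 counts in every library it was not tested. ITGA5, the α chain of the fibronectin receptor, went from 0.243 ± 0.0324 to 0.0987 ± 0.0243 RPKM (log2 fold change -1.13 ± 0.26, SE, edgeR adjusted p = 0.0111). ITGA3, a laminin receptor chain, went from 1.89 ± 0.482 to 1.02 ± 0.145 RPKM (-0.69 ± 0.17, adjusted p = 0.0182), and ITGB5, a partner of ITGAV, from 12.1 ± 2.07 to 7.71 ± 0.964 RPKM (-0.45 ± 0.12, adjusted p = 0.0255). The ITGA5 call was lost without GST-PTR1 library C (-0.92), the ITGA3 call without GST C (-0.66) or GST-PTR1 B (-0.64), and the ITGB5 call without GST A (-0.33), GST C (-0.49), GST-PTR1 B (-0.43) or GST-PTR1 C (-0.39).

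ITGAV, the α chain that pairs with ITGB5 and ITGB8, had 5.17, 5.21 and 4.31 RPKM with GST and 3.35, 3.70 and 3.15 RPKM with GST-PTR1. These did not overlap, but the log2 fold change of -0.33 ± 0.12 (SE) missed the threshold (edgeR adjusted p = 0.0691) and passed on library totals (-0.53, adjusted p = 0.00943). ITGAE, the other partner of ITGB7, had 0.662, 1.09 and 1.08 RPKM with GST and 1.16, 0.995 and 1.18 RPKM with GST-PTR1, which overlapped (0.42 ± 0.20, SE, edgeR adjusted p = 0.165). ITGAM and ITGAX, the myeloid partners of ITGB2, had 1 to 8 and 0 to 8 counts per library and were not tested.

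**Figure D4:**
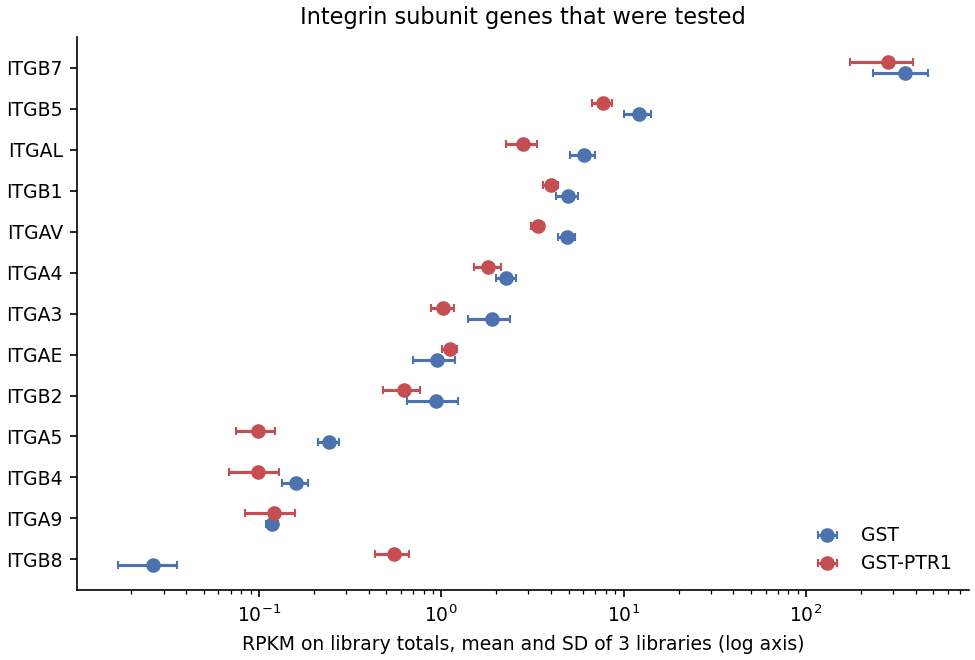
Mean level and SD of 3 libraries, in RPKM on a log axis, of the 13 integrin subunit genes tested, ordered by their mean with GST (blue) and shown beside GST-PTR1 (red). ITGB7 stands at 350.0 RPKM, more than any other subunit, and ITGB8 moves from 0.0263 to 0.549 RPKM.

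In the genome ICAM1, ICAM4, ICAM5 and ICAM3 lie together on chromosome 19, and the other 3 did not pass the test. ICAM4, the red cell adhesion molecule that starts 16.1 kb beyond the ICAM1 start, had 2.21, 2.27 and 2.15 RPKM with GST and 2.02, 2.31 and 1.90 RPKM with GST-PTR1 (log2 fold change 0.10 ± 0.18, SE, edgeR adjusted p = 0.708). ICAM5, the neuronal member at 19.1 kb, had 9.48, 6.71 and 7.79 RPKM with GST and 8.01, 8.52 and 7.10 RPKM with GST-PTR1 (0.18 ± 0.13, adjusted p = 0.349). Both overlapped between treatments, and both estimates turned to below 0 on library totals. Of 18 genes within 100 kb of ICAM1, 11 were tested, 2 rose and 0 fell by edgeR. Beside ICAM1 the riser was TYK2, a Janus kinase gene 79.7 kb away that was named after its value was seen, at 15.2 ± 2.62 RPKM with GST and 18.7 ± 2.61 RPKM with GST-PTR1 (SD, n = 3) and a log2 fold change of 0.49 ± 0.13 (SE, adjusted p = 0.0197). The TYK2 call was lost on library totals (0.29) and without GST B (0.40), GST C (0.46), GST-PTR1 A (0.44) or GST-PTR1 B (0.48). The antisense genes LIMASI and ICAM4-AS1, which overlap ICAM1 on the other strand, had means of at most 0.0942 RPKM in counts made by strand, and no member shared exon bases with another gene of its strand.

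**Figure D5:**
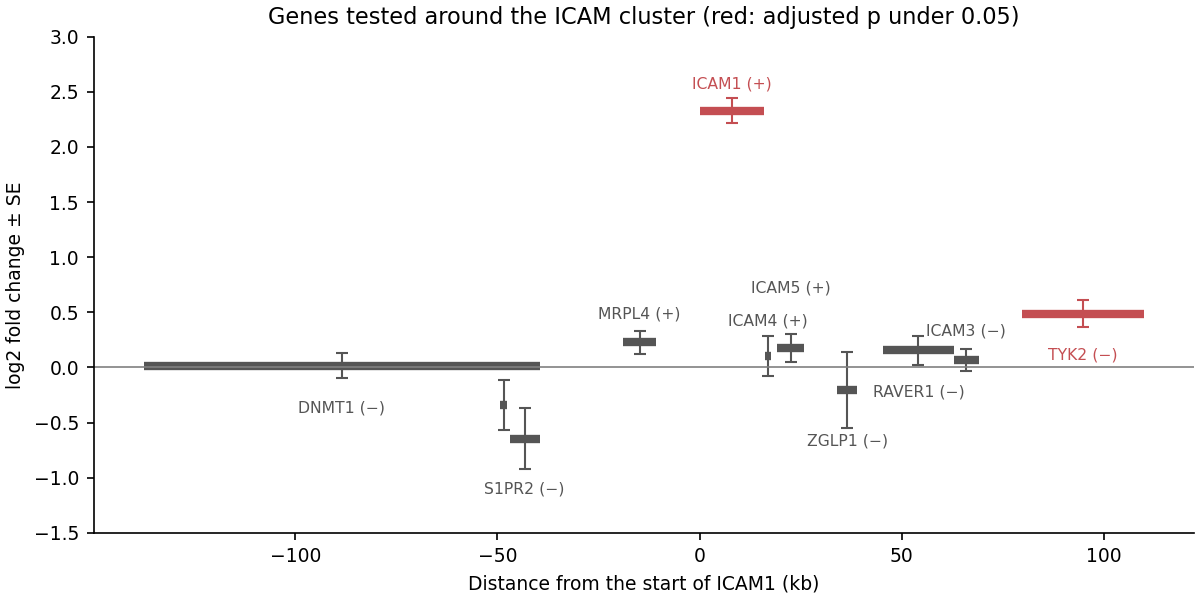
Log2 fold change (± SE) of the 11 genes tested around the ICAM cluster against distance from the start of ICAM1 in kb, with horizontal bars spanning each gene, its strand in brackets, and 1 gene without a symbol left unlabelled. ICAM1 stands at 2.33 and TYK2 at 0.49 (red), and ICAM4, ICAM5 and ICAM3 lie between 0.07 and 0.18 (grey).

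Of 22 other immunoglobulin-superfamily adhesion genes, 21 were matched to the count table, 13 were tested, 3 rose and 2 fell, with a median log2 fold change of 0.10. ALCAM, the CD6 ligand, rose by a factor close to that of ICAM1 but from a much lower level, from 0.320 ± 0.0836 to 1.45 ± 0.178 RPKM (log2 fold change 2.40 ± 0.19, SE, edgeR adjusted p = 8.16e-06). CD58, the ligand of CD2, rose from 1.24 ± 0.104 to 2.19 ± 0.515 RPKM (1.05 ± 0.24, adjusted p = 0.0101), a call that was lost without GST library C (0.99). L1CAM, a neural adhesion molecule, had 8 to 10 counts with GST and 17 to 38 with GST-PTR1 (0.98 ± 0.31, adjusted p = 0.0458) and kept its call only without GST A, among the 6 fits that left out a library (0.87 to 1.06 in the other 5), and lost it on library totals (0.77) and with DESeq2 (0.99). F11R, the junctional adhesion molecule JAM-A and a ligand of LFA-1, fell from 8.51 ± 0.375 to 5.02 ± 0.631 RPKM (-0.57 ± 0.11, adjusted p = 0.00473), and NCAM1, a common myeloma surface antigen, from 5.62 ± 1.26 to 3.44 ± 0.670 RPKM (-0.51 ± 0.16, adjusted p = 0.0424). The NCAM1 call was kept without GST-PTR1 B and lost without GST A (-0.34), GST B (-0.58), GST C (-0.61), GST-PTR1 A (-0.54) or GST-PTR1 C (-0.38). MADCAM1, the gut ligand of the ITGA4 and ITGB7 receptor, had 2, 6 and 4 counts with GST and 1, 0 and 1 counts with GST-PTR1 and was not tested.

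The soluble and matrix ligands of integrins were mostly too low to test, 9 of 25 being tested, of which 2 rose and 1 fell, with a median log2 fold change of -0.12. SPP1 (osteopontin), a secreted ligand of ITGA4, ITGAV and other integrins, was the most abundant of them and rose the most. It had 333.1, 295.2 and 263.3 RPKM with GST and 1017, 1049 and 1402 RPKM with GST-PTR1, with no overlap and a log2 fold change of 2.17 ± 0.18 (SE, edgeR adjusted p = 8.2e-06). LGALS3, a galactoside-binding lectin that binds integrin glycans, rose from 0.945 ± 0.142 to 2.72 ± 0.283 RPKM (1.74 ± 0.18, adjusted p = 6.59e-05). FN1, which encodes fibronectin, the matrix ligand of ITGA4, had 144.5, 74.5 and 72.4 RPKM with GST and 89.3, 64.2 and 57.5 RPKM with GST-PTR1 (-0.27 ± 0.24, adjusted p = 0.45), and its estimate was 0.11 without GST library A. LAMA5, a laminin chain, fell from 3.77 ± 1.27 to 2.08 ± 0.322 RPKM (-0.66 ± 0.19, adjusted p = 0.0322), a call that did not stand without GST A (-0.38), GST C (-0.75), GST-PTR1 B (-0.71) or GST-PTR1 C (-0.55).

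The genes that act on integrin activation and at adhesion sites moved in both directions. Of 38, 37 were matched to the count table, 35 were tested, 10 rose and 6 fell, with a median log2 fold change of -0.05. On library totals 5 rose and 10 fell. Without GST library C 5 of them rose, and without GST-PTR1 library B 6. The Src-family kinase LYN rose from 1.69 ± 0.276 to 6.22 ± 0.639 RPKM (2.08 ± 0.15, SE, edgeR adjusted p = 3.3e-06), and RAPGEF1, an exchange factor for RAP1, from 23.3 ± 3.75 to 43.3 ± 5.73 RPKM (1.09 ± 0.13, adjusted p = 0.000145). FERMT2, a kindlin, had 1 count in each GST library and 12, 25 and 35 counts with GST-PTR1 (3.92 ± 0.52, adjusted p = 0.000355), a ratio of summed counts per total of 14.6 (95% exact interval 4.81 to 72.6). That interval, from counting error only, is wider than the SE of FERMT2 implies, so the SE understates the uncertainty of its change. FERMT2 stayed low, at a mean of 0.0852 RPKM with GST-PTR1. The others that rose were RAP1A, RAP1B, CRK, CYTIP, STK4, PTK2B and VASP, at log2 fold changes of 0.34 to 0.65. Of these, RAP1A, CRK, STK4 and PTK2B overlapped between treatments in RPKM, and RAP1B, CYTIP and VASP did not. PXN, the adhesion-site scaffold paxillin, fell from 0.561 ± 0.0866 to 0.277 ± 0.0799 RPKM (-0.85 ± 0.22, adjusted p = 0.0215), but not past the threshold without GST C (-0.85), GST-PTR1 B (-0.84) or GST-PTR1 C (-0.66). TLN2, BCAR1, SYK, FERMT1 and TES fell as well, at -0.84 to -0.47. FERMT1, a kindlin far more abundant than FERMT2, went from 25.1 ± 3.12 to 15.0 ± 1.95 RPKM without overlap (-0.55 ± 0.11, adjusted p = 0.0056). TLN1 (talin) and FERMT3 (kindlin-3), which act on leukocyte integrins, did not pass. TLN1 had means of 29.2 ± 5.85 and 23.01 ± 3.78 RPKM (-0.15 ± 0.14, adjusted p = 0.478) and FERMT3 11.9 ± 1.07 and 9.88 ± 1.21 RPKM (-0.08 ± 0.11, adjusted p = 0.659).

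Behind the ICAM proteins stand linkers to the actin cortex, and all 7 such genes were tested, of which 2 fell and no other passed at adjusted p under 0.05, with a median log2 fold change of 0.25. The ezrin and moesin genes, which encode the linkers that bind the ICAM tails, were abundant and did not pass, EZR at 76.7 ± 3.29 and 80.7 ± 5.08 RPKM (0.27 ± 0.10, SE, edgeR adjusted p = 0.0808) and MSN at 54.1 ± 2.95 and 58.0 ± 5.73 RPKM (0.29 ± 0.10, adjusted p = 0.0602). Both passed with DESeq2, at log2 fold changes of 0.29 and 0.32, and MSN also without GST-PTR1 library C (0.35). NHERF1, a scaffold that ties ezrin to membrane proteins, fell from 43.6 ± 2.64 to 22.1 ± 2.37 RPKM (-0.79 ± 0.10, adjusted p = 0.000255), and ARHGAP18, a RhoA-inactivating protein, from 2.08 ± 0.128 to 0.940 ± 0.181 RPKM (-0.97 ± 0.16, adjusted p = 0.00186). The treatments did not overlap for either of these 2 genes.

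Of 13 genes for shedding or recycling of these receptors, 9 were tested and 3 rose, with a median log2 fold change of 0.12. ADAM8, a metalloprotease of leukocytes, rose from 0.540 ± 0.0151 to 1.02 ± 0.159 RPKM (1.10 ± 0.18, SE, edgeR adjusted p = 0.00162). RAB21 and RAB11A, small GTPases of integrin traffic, rose from 5.71 ± 0.124 to 8.03 ± 0.820 RPKM (0.69 ± 0.11, adjusted p = 0.00108) and from 33.8 ± 3.58 to 45.6 ± 2.88 RPKM (0.63 ± 0.13, adjusted p = 0.00514). The sheddases ADAM10 and ADAM17 did not pass (edgeR adjusted p = 0.104 and 0.151). Among 10 genes listed for selectins and their carriers, which include the fucosyltransferase genes FUT4 and FUT7, 9 were matched to the count table. Of these, 4 were tested and 2 fell, with a median of -0.28. These were SELPLG, which encodes the P-selectin ligand PSGL-1, from 49.3 ± 10.6 to 31.2 ± 3.27 RPKM (-0.46 ± 0.13, adjusted p = 0.0332), and PODXL, a sialomucin, from 4.71 ± 0.644 to 2.80 ± 0.520 RPKM (-0.56 ± 0.14, adjusted p = 0.0168). The SELPLG call was lost without GST A (-0.29), GST C (-0.52), GST-PTR1 B (-0.44) or GST-PTR1 C (-0.41), and the PODXL call without GST-PTR1 C (-0.43).

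The genes whose levels followed ICAM1 most closely over the 6 libraries were sought among 13359 genes with a mean of at least 50 counts, by Pearson r of log2 counts scaled to the library total. The 5 closest were PLK3, a stress-responsive kinase (r = 0.9999), ZNF385C, a zinc finger gene (0.9999), VAV1, the leukocyte exchange factor for RAC (0.9992), WNT10A, a secreted WNT ligand (0.9991), and TNFAIP2, a TNF-inducible gene (0.9990). PLK3 went from a mean of 13.1 to 55.6 RPKM and TNFAIP2 from 18.1 to 204.9 RPKM. The 6 libraries are 2 treatments of 3, so such an r describes mainly the difference between them, and 444 genes had an r above 0.95.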

How the data were processed

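RNA-seq libraries of RPMI8226 cells (3 GST, 3 GST-PTR1) were analysed from the raw counts per gene that the authors deposited. Per the file headers these were made with featureCounts 1.5.0-p1, counting by strand over exons of Ensembl release 75 on GRCh37, without multi-mapping reads. The aligner is not given in the sources used here. Each column names a treatment, but its number could not be matched to a replicate number. The deposited exon length gave RPKM on library totals, and no depth correction beyond that was made for levels.

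Genes kept by filterByExpr were tested in edgeR 4.0.16 (R 4.3.3) with TMM factors and glmQLFTest, Benjamini-Hochberg over all 16926, threshold 0.05. The code of the fit was tested on simulated counts with the same variability for every gene. That check does not give its error rate in these libraries. Ratios within a library were compared by exact permutation tests in scipy 1.17.1. The edgeR p-values set the difference between treatments against variation estimated from 3 libraries a treatment and moderated across genes. The SE and interval of an edgeR log2 fold change were derived from its test statistic. At low counts such an SE can be smaller than counting error alone, as for FERMT2. Intervals on counts cover counting error only.

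Alternatives were DESeq2 1.42.0 (size factors, and its test), library totals, limma 3.58.1 (voom), 2 count filters, a test against a 2-fold change and leaving out each library. The members and gene lists were chosen with earlier results of these data known. Named genes are all members, up to 4 genes per list with the largest changes among those that passed without overlap, set neighbours and partners of the members, and the 5 genes most like ICAM1. NCAM1, TYK2, ADAM10, ADAM17 and the further genes named as risers or fallers of the activation list were named after their values were seen. Promoter sequences are from RefSeq.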

Additional observations from a re-analysis of the deposited data

How the results depend on the processing

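ICAM1 kept its call in each of the 15 alternative fits and ITGAL in 14. Counts of calls changed as follows. With genes of at least 1 count in any library, 2 members (ICAM1 and VCAM1) rose, 5 genes of the immunoglobulin superfamily rose and 2 integrin ligands fell. With at least 10 counts in every library, 0 other integrin subunits rose by edgeR (ITGB8 was not tested). Tested against a change of 2-fold, 0 members, 0 other integrin subunits, 0 immunoglobulin-superfamily genes, 0 activation genes, 0 ICAM tail partners, 0 ligands and 0 selectin genes fell and 0 shedding or trafficking genes rose by edgeR, while 1 immunoglobulin-superfamily gene and 2 activation genes rose. That test asks for more than a difference from 0. On library totals, which moved the median of all genes by -0.20 (log2), 5 activation genes rose and 10 fell, 3 ligands and 1 shedding or trafficking gene fell, and the estimates of ICAM3 (-0.13), ICAM4 (-0.094) and ICAM5 (-0.02) turned negative. With DESeq2, 2 ICAM tail partners rose.

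Leaving out 1 library at a time gave 1 to 3 other integrin subunits lower, 1 to 3 immunoglobulin-superfamily genes higher and 1 to 2 lower, 5 to 8 activation genes higher, 0 to 1 ICAM tail partners higher, 0 to 2 ligands lower and 1 to 3 selectin genes lower. Signs turned for ICAM2 (-0.284 to 0.018, above 0 without GST-PTR1 B), ITGB1 (-0.184 to 0.021, above 0 without GST B), ITGB7 (-0.436 to 0.150, above 0 without GST A or GST-PTR1 B), TLN1 (-0.237 to 0.003, above 0 without GST A) and FN1 (-0.435 to 0.107, above 0 without GST A), none of which had passed. The cause of these changes was not tested.

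A block on the replicate numbers of the labels could not be fitted, since columns could not be matched to them. After the data were seen, a fit was made of the 4 libraries with a column number found in both treatments. Same-numbered libraries deviated from their treatment means with r = -0.03 and 0.25. GST A with GST-PTR1 A, the libraries left without a shared number, gave 0.37. Among the other combinations GST B with GST-PTR1 C gave 0.35, and the lowest was -0.47, for GST A with GST-PTR1 C. Deviations from means of 3 libraries depend on one another, so this check cannot decide whether the numbers pair samples. The main test used no pairing. Without the block and with it, 2 members rose (ICAM1 and VCAM1), 1 immunoglobulin-superfamily gene fell and 2 ligands fell, and 6 activation genes rose with the block. Other calls of the lists stayed within 1.5 times of those reported. VCAM1, at 0 to 4 counts per GST library, fell under the filter on low counts in the test of all 6 libraries. In the 4-library fits VCAM1 was kept, at a log2 fold change of 1.80 without the block (edgeR adjusted p = 0.0257) and 1.80 with it (adjusted p = 0.0276).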
